A study of Mus musculus with 4 samples.

Results

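Swiss 3T3 fibroblasts, an established mouse line, were compared between the Lpar1-/- (KO) and Lpar1+/+ (WT) genotypes after 24 h of coculture with wild-type mast cells grown from mouse bone marrow. The comparison uses 2 of the 4 single-colour Agilent arrays of the series, 1 for each genotype, and the other 2 hold the same genotypes at 0 h. Coculture was in medium with 100 ng/ml SCF, the growth factor of mast cells. The labels name 2 ways of taking the fibroblasts back: trypsin with reseeding, or beads against CD117 (Kit) that bind mast cells. They do not say which was used for an array, nor what the 0 h samples held. The KO line is 1 single-cell clone made with Cas9 and a guide next to exon 3 of Lpar1, and the WT cells are not said to be a clone, so genotype and clone cannot be told apart. RNA of 3 samples was pooled for each array, which leaves no spread between samples: no difference below has a test, an SD or a p-value.

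Of 29675 genes on the array, 17305 gave a signal well above background on both 24 h arrays, and these are the genes measured. A signal is given as log2 of the processed spot intensity minus the array's own 75th percentile, so 0 marks the 75th percentile and −4 lies 16-fold below it. A difference is KO minus WT on that log2 scale. Genes at least 2-fold apart are called higher or lower in KO, a description of this pair of arrays. The 13687 genes with a mean log2 signal of −4 or above are described first and kept apart from the 3618 dimmer ones. Errors are standard errors (SE) from the scanner software's spot error; their median was 0.20 for a difference in the brighter genes and 0.29 in the dimmer ones, and they cover neither culture nor labelling.

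LPAR1 is a G protein-coupled receptor for lysophosphatidic acid, a lipid made outside cells by autotaxin. In fibroblasts it couples to small GTPases that drive actin assembly; free actin falls, the coactivator MRTF enters the nucleus, and with the factor SRF it switches on contractile genes such as those for smooth muscle actin and transgelin. LPAR1 also couples to Gi proteins and the MAP kinase pathway, and actin tension feeds YAP and TAZ, whose best known target encodes the matrix protein CCN2.

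The probes of the genes that carry the main results are shown by their first 30 bases of 60, as printed on the array, with their places on mouse build mm9 as the files give them. They are the knocked-out gene, the genes furthest apart in either direction, and the alarmin Il33 with the 3 probes of its receptor Il1rl1.
Lpar1, chr4:58499672-58499731, minus strand: caacctgctggctattgctatcgagaggca
Tagln, chr9:45738097-45738156, minus strand: ctttgaaggagacccagcccagcctctaca
Syt13, chr2:92795818-92795877, plus strand: acatgtctggttacactttggagcacaaaa
Il33, chr19:30035101-30035160, plus strand: gtgaatctgtacgatatctttaaagtagta
Il1rl1, chr1:40504769-40504828, plus strand: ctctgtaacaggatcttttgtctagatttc
Il1rl1, chr1:40520014-40520073, plus strand: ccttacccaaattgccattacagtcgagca
Il1rl1, chr1:40522187-40522246, plus strand: gccattgactccttgtgtgttttcttcatg
No annotation of build mm9 was used here, so the exons and untranslated regions under these probes are not given.

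Lpar1 itself read −3.15 on WT and −3.61 on KO, a difference of −0.46 with an SE of 0.21, and differed by −0.22 at 0 h. The signal was low and under 2-fold apart at both times. Where this probe lies relative to the edited site was not analysed, so the probe checks nothing about the genotype. The difference would lie just past the 2-fold threshold if the arrays were scaled on the spike-in RNAs.

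All 4 arrays were on 1 slide, with no saturated spot, and 67.3% of spots were well above background on WT at 24 h and 62.1% on KO. Over all 17305 measured genes, 998 (5.77%) were at least 2-fold higher in KO and 2114 (12.2%) lower, 18% in all, and the median was −0.09. Among the brighter genes, at a mean of −4 or above, 865 (6.32%) were at least 2-fold higher in KO and 881 (6.44%) at least 2-fold lower, 12.8% in either direction, around a median of −0.01. Below −4 the picture was lopsided, with 133 genes (3.68%) higher and 1233 (34.1%) lower, 37.8% together, around a median of −0.63. The 25 ERCC and ETG control probes near background also read lower on KO there, by a median of −1.39 (from −2.30 to −0.48), and their signals ran from −8.26 to −4.99 on WT and from −8.85 to −6.38 on KO. Lower calls among dim genes thus lie where those control probes read lower too, and no dim gene is counted in the gene groups below. The 8 brighter E1A spike-in RNAs of the labelling kit read 0.54 higher on KO (from 0.06 to 0.81). Scaling on them in place of the 75th percentile lowers every difference by that much and puts the median of the brighter genes at −0.55, so group medians between 0 and 0.54 turn negative with it.

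**Figure D1:**
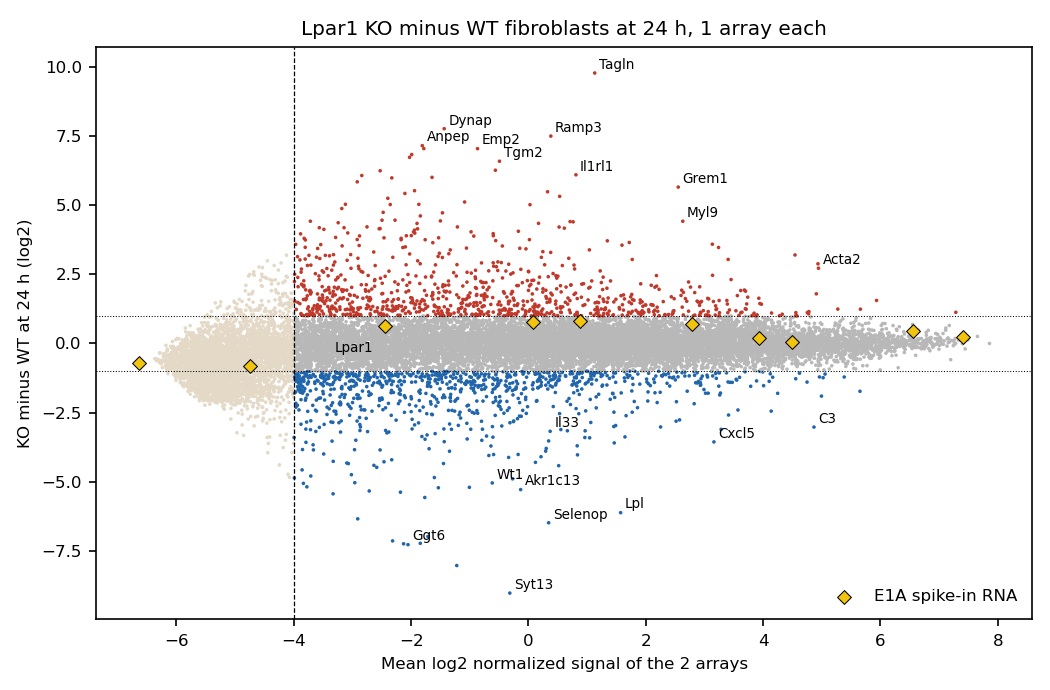
Each point is 1 gene measured on both 24 h arrays: the horizontal axis is the mean log2 signal of the 2 arrays relative to their 75th percentiles, the vertical axis is KO minus WT (log2); red and blue points are at least 2-fold higher and lower, pale points lie below a mean of −4 (dashed line), and diamonds are E1A spike-in RNAs. Tagln at 9.79 and Syt13 at −9.04 lie furthest from 0, and the cloud below −4 is shifted downward with the 2 dim spike-ins.

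Near the threshold, Exosc6 (1.00009) and Slc25a25 (1.00115) were just inside the higher calls and Mdn1 (0.999282) and Vac14 (0.998825) just outside them. On the lower side Krit1 (−1.00074) was just inside and Slc12a5 (−0.999968) just outside.

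The arrays read as fibroblasts. On WT the 21 fibroblast markers had a median signal of 4.23 and on KO of 3.55, with Col1a2 at 6.26 and 5.99, Fn1 at 5.54 and 5.51, and Vim at 4.38 and 4.37. Of 18 measured markers 0 were higher in KO and 5 lower, with a median of −0.20. The 5 were Fbln1 (−2.36), Ly6a (−1.91), Pdgfra (−1.29), Col6a1 (−1.28) and Col3a1 (−1.22). A pair of markers lay at opposite ends: Thy1, a surface glycoprotein of many fibroblasts, was not well above background on WT (−7.41) and read 4.12 on KO, at least 1246-fold higher, while Fap, a surface protease of activated fibroblasts, read −0.65 on WT and was not well above background on KO (−6.64), at least 63.4-fold lower. In RNA from whole samples, fewer cells of a type and less RNA per cell cannot be told apart.

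Most markers of other cells were low. Of 24 mast cell markers, 17 were above background on each 24 h array, but the median signal was −4.89 on WT and −4.92 on KO, against 3.18 and 4.21 on the 0 h arrays. Cpa3, the mast cell carboxypeptidase, read −1.75 on WT and −1.07 on KO, and Fcer1a, of the receptor for IgE, −3.51 and −2.82. Ms4a2, Tpsab1, Mcpt1, Gata1 and Mrgprb2, all mast cell genes, were above background on neither array. Of 11 measured mast cell markers 4 were higher in KO and 1 lower (median 0.69): Il1rl1 (6.11), Gata2 (2.22), Fcer1g (1.14) and Tph1 (1.10) against Hdc (−1.57). The log2 summed signal of the 24 was 0.71 on WT and 4.10 on KO, and Il1rl1 alone read 3.86 on KO. With normexp background correction Fcer1g (0.75), Tph1 (0.57) and Hdc (−0.72) were under 2-fold.

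Pan-leukocyte markers had medians of −4.62 on WT and −4.73 on KO, and those of macrophages and granulocytes −4.42 and −3.84. Some were bright on both arrays: Arhgdib, a GDP dissociation inhibitor of leukocytes, read 3.15 and 2.69, Cd14, a macrophage coreceptor, 1.52 and 1.66, and Egfl7, of endothelium, 1.88 and 1.93. Among 6 measured leukocyte markers Csf2rb was higher (1.66, and 0.51 as the mean of its probes) and Cd53 lower (−1.03), and among 7 of macrophages and granulocytes Ly6g was lower (−2.60). Endothelial markers had medians of −6.08 and −7.04, with Cdh5, Tek and Erg above background on neither array. Vwf (1.88) and Flt1 (1.76) were higher in KO, although another Vwf probe gave −0.98. Epithelial markers had medians of −5.52 and −6.35, and the 5 measured ones were all dim and all read lower on KO, as the control probes did. What these low signals add to the gene groups below was not tested.

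Leaving out models with provisional names, such as B230311B06Rik (2.80 on WT and −5.24 on KO, −8.04), the 15 highest and 15 lowest genes were at least 33.1-fold apart (Wt1). With normexp background correction these 30 had log2 sizes of 2.48 to 8.96. They had to be 2-fold apart the same way with normexp to be picked, so that call was fixed beforehand. Tagln encodes transgelin, an actin-binding protein of smooth muscle. It read −3.77 on WT and 6.03 on KO, a difference of 9.79 (SE 0.21, 887-fold), and −2.09 and 5.92 at 0 h. It was thus low on WT and bright on KO at both times.

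Ramp3, a partner of the adrenomedullin receptor, read −3.37 on WT and 4.14 on KO (7.51). Tgm2, a transglutaminase that cross-links matrix proteins, read −3.79 and 2.81 (6.60), and its other probe gave 5.40. Timp3, a matrix-bound inhibitor of metalloproteinases, read −3.70 and 2.57 (6.27). All 3 lay far below the 75th percentile on WT and well above it on KO.

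Emp2, a tetraspan membrane protein, differed by 7.05, and Dynap, a membrane protein, by 7.78. Osr1, a zinc-finger factor of early mesenchyme, differed by 6.25, Ror2, a receptor for Wnt5a, by 5.99, and Diras2, a small GTPase, by 6.01. Olfm1 (6.08) and Crmp1 (5.85) encode proteins of nerve cells; the 2 probes of Olfm1 gave 6.08 and 2.59. WT signals of these 7 genes lay between −5.88 and −4.39, so their sizes rest on WT signals close to background. Sprr2d, a small proline-rich protein of the skin's cornified layer, differed by 7.06 and comes from a family of near-identical genes that a probe may not tell apart. Anpep, Asphd2 and Il1rl1 complete the 15 and are described with the 0 h pair. The 24 h WT signals of Sprr2d (−5.31), Anpep (−5.39) and Asphd2 (−5.41) were close to background as well.

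Syt13, a synaptotagmin of vesicle traffic, was the furthest down of all genes. It read 4.20 on WT and −4.84 on KO, a difference of −9.04 (SE 0.22, 525-fold), and 3.61 and −5.38 at 0 h. Lpl, the lipase that releases fatty acids from lipoproteins, read 4.63 on WT and −1.49 on KO (−6.13). Both lay far above the 75th percentile on WT and below it on KO.

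Selenop, the selenium carrier selenoprotein P, read 3.59 and −2.90 (−6.49). Pcolce2, an enhancer of procollagen processing, read 1.60 and −3.61 (−5.21), and Wt1, a factor of mesothelium and kidney, 1.91 and −3.14 (−5.05). The others of the 15 were Ggt6 (−7.28), Fgl1 (−6.35), Fbxl7 (−5.58), Rhbdl3 (−5.44), Rasgrp2 (−5.38), Gdpd2 (−5.34), Akr1c13 (−5.29), Arhgap20 (−5.22), Agxt (−5.19) and Hoxc6 (−5.06). Ggt6, Fgl1, Rhbdl3, Agxt and Hoxc6 read between −6.37 and −5.70 on KO, near its floor. SEs of all 30 genes lay between 0.20 and 0.35.

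**Figure D2:**
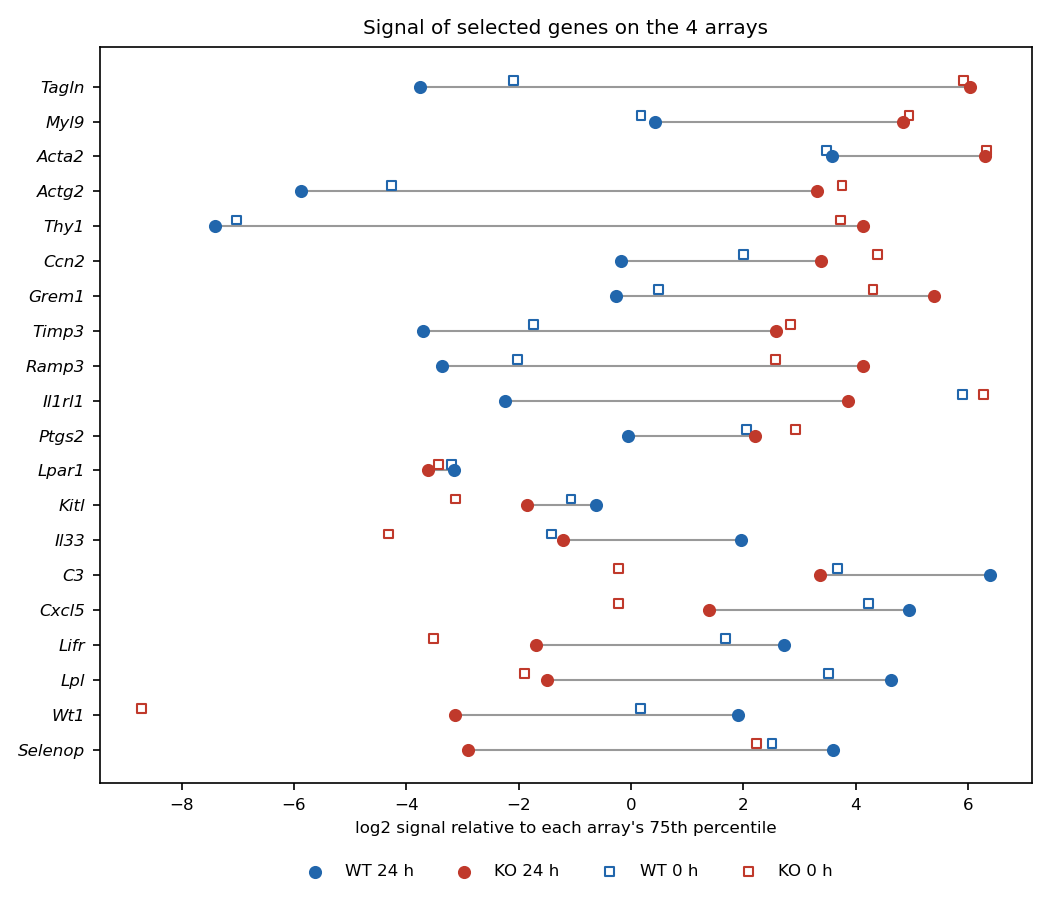
Signals of selected genes on all 4 arrays (log2 relative to each array's 75th percentile); filled circles are the 24 h arrays, joined by a line, open squares the 0 h arrays, blue WT and red KO. Myl9 and Acta2 sit in nearly the same places at both times. Selenop, and Il1rl1 at its probe brightest over the 4 arrays, differ between genotypes at 24 h but hardly at 0 h.

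Genes measured on only 1 of the arrays were given as at-least folds, the bright signal over the other array's floor or own dim signal. On KO alone, 310 of 20921 genes above background on either array were at least 2-fold higher (1.48%), and 163 of them (0.779%) had a signal of −4 or above. On WT alone there were 2031 (9.71%), of which 82 (0.392%) had such a signal. Brighter genes were thus seen more often on KO alone, and dim ones more often on WT alone. The floors were −6.16 on WT and −6.69 on KO.

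After Thy1, the largest bounds on KO were those of Actg2, the smooth muscle actin of gut and bladder (3.30, at least 581-fold), Scrn1, a secernin (2.18, at least 324-fold), and Tpd52l1 (1.66, at least 227-fold). On WT they were those of Cyp2f2, a cytochrome P450 (2.74, at least 690-fold), F11r, the junction molecule JAM-A (2.09, at least 441-fold), Avpr1a, a vasopressin receptor (1.20, at least 238-fold), and Grpr, a receptor for gastrin-releasing peptide (1.16, at least 231-fold). On the 0 h array of the same genotype these 8 read between −1.09 (Cyp2f2) and 3.75 (Actg2).

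Gene groups are described by counts over their members measured at a mean of −4 or above; 829 of the 1234 list entries on the array met this, and members below it or seen on 1 array are given apart. Each count is set against the 6.32% higher and 6.44% lower of all genes, and a share near these is no result about a list. Genes of lysophosphatidic acid signalling differed little. Of 9 measured receptors and enzymes (12 on the array) 0 were higher in KO and 1 lower, against 6.32% and 6.44% of all genes, with a median of −0.26. The receptor Lpar4 was the 1, at −0.03 on WT and −2.48 on KO (−2.45). Lpar6 (−0.61) and Lpar2 (0.19) were under 2-fold apart, Lpar5 was dim on both arrays (−0.48), and Lpar3 was above background on neither. Enpp2, which encodes autotaxin, read 0.36 on WT and 1.23 on KO (0.87), under 2-fold. The phosphatases that degrade the lipid, Plpp1 (0.28), Plpp2 (0.00) and Plpp3 (−0.77), were under 2-fold as well.

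Of 8 measured genes for the related lipid sphingosine 1-phosphate, 1 was higher, 1 lower and 6 neither (median 0.03), against 6.32% and 6.44% of all genes. Sphk1, the kinase that makes it, was higher (−3.29 and −0.40, 2.89) and its exporter Spns2 lower (0.77 and −2.34, −3.10). The receptors S1pr1, S1pr2 and S1pr3 differed by −0.10, 0.16 and 0.69. G protein and small GTPase pathway genes had 0 of 22 higher and 2 lower (median −0.24), near the 6.44% lower of all genes. The 2 were Rgs2 (−1.85) and Rgs3 (−1.30), which shut off G protein signals; the other Rgs3 probe gave −0.90. Rhoa (0.72), Rhob (0.73), Rock1 (−0.33), Gna12 (−0.24) and Gna13 (−0.37) were under 2-fold.

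SRF targets and contractile genes included 7 higher and 0 lower of 17 measured (24 on the array), against 6.32% and 6.44% of all genes, and their median of 0.92 was 0.38 with spike-in scaling. Myl9, a myosin light chain, read 0.42 on WT and 4.84 on KO (4.43, SE 0.20). Acta2, smooth muscle actin, read 3.58 and 6.31 (2.72). Both were high on KO at either time and lower on WT.

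Tpm2, a tropomyosin, read 1.96 and 3.28 (1.32), and Vcl, vinculin of focal adhesions, 1.08 and 2.11 (1.03). Srf itself read 1.54 and 2.85 (1.31), though its other probe gave −0.24, and Tgfb1i1, an adhesion adaptor, 0.93 and 2.18 (1.25), with 0.76 at its other probe. With Tagln these are the 7, and 6 of them were at least 2-fold higher at 0 h too; Srf differed by 0.88 there. Zyx (0.92), Flna (0.92), Cald1 (0.85), Tpm1 (0.40) and Myh9 (0.28) were under 2-fold, and the cytoplasmic actin Actg1 read 5.99 and 6.06. Cnn1 was dim on both arrays, and Myh11 was above background on WT alone. The largest sizes were thus those of Tagln, Myl9 and Acta2, genes of smooth muscle.

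SRF binds the CArG box, CC, then 6 bases that are each A or T, then GG, a motif that reads as itself on the other strand. RefSeq promoters of GRCm38.p6, 250 bases before to 50 after a start, were searched for it: 535 of 32851 (1.63%) held it. Of the 15 measured list members with an entry, 6 held it: 3 of the 5 called (Myl9, Srf and Vcl) and 3 of the 10 others (Actg1, Cnn2 and Fhl2). The list was chosen for SRF targets, so a share above that of all promoters is no result of these arrays. The 250 bases before the start of the called ones are shown, since they put the sequence beside the genes that differ, with CArG matches in capitals.
Myl9, chr2:156775214-156775463, plus strand: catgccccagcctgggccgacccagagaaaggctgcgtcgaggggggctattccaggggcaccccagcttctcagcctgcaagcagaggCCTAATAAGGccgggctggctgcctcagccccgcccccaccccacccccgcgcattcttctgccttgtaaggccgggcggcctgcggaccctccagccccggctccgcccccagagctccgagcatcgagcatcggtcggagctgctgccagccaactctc
Srf, chr17:46556163-46556412, minus strand: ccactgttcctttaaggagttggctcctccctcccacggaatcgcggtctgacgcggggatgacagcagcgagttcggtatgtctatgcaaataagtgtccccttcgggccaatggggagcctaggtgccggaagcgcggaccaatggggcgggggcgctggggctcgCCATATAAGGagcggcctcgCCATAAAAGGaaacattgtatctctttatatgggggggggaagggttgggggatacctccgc
Vcl, chr14:20929148-20929397, plus strand: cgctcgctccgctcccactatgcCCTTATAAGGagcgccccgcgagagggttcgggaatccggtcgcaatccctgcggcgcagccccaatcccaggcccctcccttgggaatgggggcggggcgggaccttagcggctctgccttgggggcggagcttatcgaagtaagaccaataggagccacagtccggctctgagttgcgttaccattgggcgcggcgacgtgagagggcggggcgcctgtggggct
Srf, whose product binds this box, held 2 matches and the others 1 each. A match describes the letters and shows no binding in these cells.

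YAP and TAZ targets had 5 of 17 measured (18 on the array) higher and 0 lower, with a median of 0.21 that turned to −0.33 with spike-in scaling. Ccn2, a matricellular protein, read −0.19 on WT and 3.37 on KO (3.56), Ankrd1, a muscle ankyrin protein, 1.28 and 2.62 (1.35), and Tead4, the partner factor of YAP, −2.34 and −0.48 (1.86). Fjx1 (1.58) and Crim1 (1.01) were the other 2. Ccn1, the relative of Ccn2, read 2.79 and 3.32 (0.53), and Axl 3.19 and 3.98 (0.79). Only Ccn2 of the 5 was also 2-fold higher at 0 h.

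Genes that the MAP kinase pathway induces, only some of which restrain it, had 5 of 15 (18 on the array) higher and 1 lower (median 0.63). The phosphatases Dusp2 (−2.55 and 1.35, 3.90) and Dusp4 (0.60 and 2.09, 1.49) and the ETS factors Etv4 (2.30 and 4.61, 2.31), Etv5 (0.34 and 2.34) and Etv1 (1.14 and 2.27, 1.13) were higher. Spry1, a Sprouty inhibitor of the pathway, went the other way, with 0.68 on WT and −2.77 on KO (−3.46). Dusp6 (0.63), Dusp1 (0.60) and Spred2 (−0.15) were under 2-fold. Of the 6, only Dusp2 and Spry1 were 2-fold apart the same way at 0 h.

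Among 18 AP-1 and immediate early genes measured (20 on the array) 3 were higher and 1 lower, and the median of 0.24 turned to −0.31 with spike-in scaling. Fosl1, an AP-1 subunit, read −1.01 and 1.39 (2.40), Nr4a1 1.55 and 2.76 (1.21) and Ier3 1.20 and 2.30 (1.10). Fos, another subunit, read 0.08 and −1.24 (−1.32). Jun (0.99), Egr1 (0.38) and Junb (−0.17) were under 2-fold, so AP-1 subunits lay on either side of 0.

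In the TGF-beta and BMP pathway, 7 of 28 measured (39 on the array) were higher and 1 lower (median 0.17, and −0.37 with spike-in scaling). Grem1, a secreted BMP antagonist, read −0.28 on WT and 5.38 on KO (5.66, SE 0.20). It was among the 2 of these 8 genes that were 2-fold apart the same way at 0 h, where it differed by 3.82.

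Id2, a target of BMP signals (1.69), and Skil, a Smad corepressor (1.42), were higher too, as were the ligands Tgfb3 (1.28) and Inhba (1.20). The receptor Tgfbr1 was lower at its brightest probe (−1.43) and at 0.54 at the other, so it has no settled direction. Tgfb1 (0.11), Smad7 (−0.08), Id1 (0.48) and Tgfbi (−0.07) were under 2-fold, and Gdf10 was above background on WT alone, at least 24.9-fold.

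**Figure D3:**
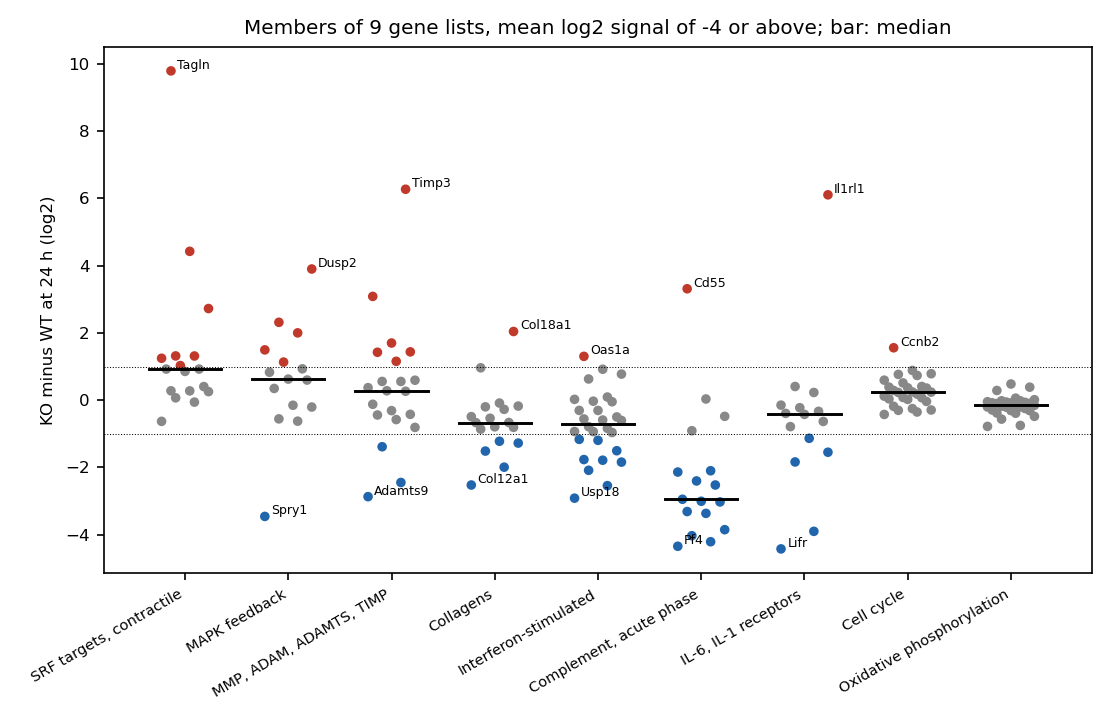
KO minus WT at 24 h (log2) for each measured member of 9 gene lists with a mean signal of −4 or above; red and blue points are at least 2-fold higher and lower, horizontal bars are list medians and dotted lines mark 2-fold. Complement and acute-phase genes lie mostly below −2, contractile genes mostly above 0, and oxidative phosphorylation subunits between −0.78 and 0.48.

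Collagens included 1 higher and 5 lower of 18 measured (24 on the array), with a median of −0.67. The main fibril genes differed little: Col1a1 read 3.05 and 2.96 (−0.09) and Col1a2 6.26 and 5.99 (−0.27). Lower in KO were Col12a1 (0.84 and −1.68, −2.52), Col6a2 (1.69 and −0.31, −1.99), Col5a2 (−1.51), Col6a1 (−1.28) and Col3a1 (−1.22), and Col18a1, the source of endostatin, was higher (−0.38 and 1.66, 2.04). All 6 were also 2-fold apart the same way at 0 h.

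Of 18 collagen processing enzymes 1 was higher and 6 lower. Loxl2, a cross-linking lysyl oxidase, was higher (2.21, and up to 3.89 over its 3 probes). Pcolce2, P3h2 (−2.87), a prolyl hydroxylase, Plod2 (−1.45), a lysyl hydroxylase, P4ha1 and P4ha3 (−1.28 each) and Adamts2 (−1.28), which trims procollagen, were lower. Lox (0.90), Plod1 (0.03) and the chaperone Serpinh1 (0.16) were under 2-fold. Among small leucine-rich proteoglycans Dcn read 5.20 and 5.19 and Ogn, osteoglycin, 1.83 and −2.19 (−4.02).

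Matricellular and elastic fibre proteins split evenly, 5 higher and 5 lower of 23 (median −0.03). Fbln5, which assembles elastic fibres, read −2.21 and 1.32 (3.53), and Smoc2 (2.69), Tnc (1.49), Ccn3 (1.43) and Postn (1.21) were higher. Efemp1 (−2.42 and −5.34, −2.92), Fbln1 (−2.36), Ccn5 (−1.65), Matn2 (−1.48) and Ccn4 (−1.41) were lower, and Mfap2, a microfibril protein, read 1.00 on WT and was not well above background on KO, at least 166-fold. Of these 10, 9 were 2-fold apart the same way at 0 h. The CCN family itself lay on both sides, with Ccn2 and Ccn3 higher and Ccn4 and Ccn5 lower.

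Proteases of the matrix and their inhibitors had 6 of 21 higher and 3 lower (median 0.28, and −0.26 with spike-in scaling). With Timp3, the collagenase Mmp13 (−4.45 and −1.36, 3.09), the stromelysin Mmp3 (−0.55 and 1.15, 1.70), Adam8 (1.44), the gelatinase Mmp2 (1.42) and Timp1 (4.20 and 5.36, 1.15) were higher. Adamts9 (1.12 and −1.75, −2.87), Adamts1 (5.36 and 2.91, −2.45) and the membrane enzyme Mmp14 (−1.39) were lower. Mmp10 was above background on KO alone, at least 9.96-fold. The inhibitors Timp1 and Timp3 thus stood on the same side as Mmp2, Mmp3 and Mmp13.

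Plasmin-related genes split 4 and 4 of 13. The activator Plau (−3.87 and −0.75, 3.12), its receptor Plaur (1.15 and 3.22, 2.08) and the inhibitor Serpinb2 (4.35) were higher. The inhibitor Serpine2 read 1.20 and −1.44 (−2.64), and Serpina3n (−3.85), Serpina3g (−1.40) and Serpinb6b (−1.24) were lower; Serpina3 genes are close copies that a probe may not separate.

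Of 16 hyaluronan and proteoglycan genes 2 were higher and 1 lower. Sdc3, a syndecan, read −3.01 and −0.16 (2.85). Cd44, the hyaluronan receptor, read 2.51 and 3.87 (1.36), and its 4 probes ranged from 0.84 to 1.36. Has2, the synthase, read 2.63 and 1.16 (−1.47).

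Integrins and laminins had 2 of 20 higher and 3 lower, not far from the 6.32% and 6.44% of all genes. Itgb1 (1.16), whose other probe gave 0.40, and Itga6 (1.01) were just past 2-fold, and Itga6 fell short of it with quantile normalization (0.99). Nid2, nidogen 2 of basement membranes (−2.41), Itga9 (−2.14) and Itga7 (−1.37) were lower, though Itga7 shrank to −0.84 under an alternative setting. Cell junction genes had 4 of 13 higher and 0 lower (median 0.26, and −0.29 with spike-in scaling): Pkp2, a desmosomal plakophilin (−2.42 and 1.30, 3.72), Jam2 (−1.63 and 0.74, 2.37), Gja1, connexin 43 (−1.80 and −0.56, 1.25), and Cdh13 (1.18, and 0.30 at its other probe). F11r, the junction molecule given above among the largest bounds on WT alone, is not on this list.

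Complement and acute-phase genes were mostly lower, 13 of 17 measured (24 on the array) against 6.44% of all genes, with 1 higher and a median of −2.95. Under each alternative setting the median stayed between −3.49 and −2.18. C3, the central complement protein, read 6.38 on WT and 3.35 on KO (−3.03, SE 0.20). The early proteases C1s1 (2.96 and −0.05, −3.01) and C1ra (3.26 and 1.12, −2.14) and the alternative pathway's factor B, Cfb (−0.23 and −4.44, −4.21), were lower.

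The acute-phase proteins Hp (−0.07 and −3.38, −3.31), Lcn2 (−0.13 and −3.50, −3.37), Saa3 (−0.47 and −3.41, −2.95) and Ptx3 (2.85 and 0.75, −2.10) and the platelet chemokine Pf4 (0.72 and −3.62, −4.35) were lower, as were C4b (−2.40), C1rb (−2.52) and Serpina3n. C1ra and C1rb, and the Saa genes, are close copies. Cd55, a brake on complement at the cell surface, was the 1 that was higher (−4.29 and −0.98, 3.31). Cp (0.03), Saa1 (−0.48) and Cd59a (−0.91) were under 2-fold. Of the 14 called, 11 were 2-fold apart the same way at 0 h.

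Receptors of the IL-6, IL-1 and related cytokine families had 1 of 15 measured (17 on the array) higher and 5 lower (median −0.42). Lifr, the receptor of leukaemia inhibitory factor, read 2.73 on WT and −1.70 on KO (−4.42), Osmr, that of oncostatin M, 4.56 and 3.01 (−1.55), and Il1r1, that of IL-1, 2.12 and 0.28 (−1.84). The IL-13 receptors Il13ra2 (0.61 and −3.30, −3.90) and Il13ra1 (−1.44 and −2.58, −1.14) were lower as well. The shared chain Il6st differed by −0.79 and Il6ra by −0.33. All 5 lower receptors were also 2-fold lower at 0 h.

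Il1rl1, the IL-33 receptor, was the 1 that was higher. The probe that stood for it, brightest over the 4 arrays together, read −2.24 on WT and 3.86 on KO (6.11). Another, which was brighter on KO at 24 h, read −2.25 and 4.99 (7.24). The remaining probe was not well above background on WT (−7.80) and read −0.92 on KO. All 3 probes, shown above, stood higher on KO. At 0 h, where mast cell transcripts were abundant, the brightest probe read 5.89 on WT and 6.28 on KO, the next 2.38 and 4.53 and the last 1.29 and 2.69. The latter 2 probes were thus past 2-fold higher on KO at 0 h too, and the brightest was not. On the 24 h arrays Kit was above background on KO alone and close to its floor (−5.40, at least 1.67-fold), and Cpa3 and Fcer1a differed by 0.68 and 0.69. Of the 11 measured mast cell markers, 6 were under 2-fold, Cpa3 and Fcer1a among them. Besides Il1rl1, Gata2 (2.22), Fcer1g (1.14) and Tph1 (1.10) were higher in KO, and Hdc (−1.57) was lower. With normexp, Fcer1g, Tph1 and Hdc were under 2-fold, as given above.

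Cytokines and chemokines had 2 of 17 higher and 4 lower (median −0.29). The neutrophil chemokines Cxcl5 (4.94 and 1.38, −3.56) and Cxcl1 (3.96 and 1.19, −2.77) were lower, and Il11, which acts through gp130, was higher (−2.08 and 0.27, 2.35). The monocyte chemokines Ccl2 (6.82 and 6.39, −0.43), Ccl7 (0.13) and Csf1 (0.23) were under 2-fold. Il18 was above background on KO alone, at least 22.2-fold. In the TNF families, Tnfrsf12a, the receptor of TWEAK (2.71 and 4.65, 1.93), and Tnfrsf23 (1.87) were higher and Tnfrsf21 (−1.74) and Fas (−1.25) lower, of 13.

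Of 9 measured factors that act on mast cells (16 on the array), 2 were higher and 4 lower (median −0.43). The alarmin Il33 read 1.96 on WT and −1.22 on KO (−3.18, SE 0.20, 9.06-fold lower). Kitl, which encodes SCF, read −0.62 and −1.86 (−1.24), and with normexp it was under 2-fold (−0.94). Il6 (1.82 and −0.39, −2.21) and the chemokine Cxcl12 (5.99 and 4.78, −1.21) were lower.

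Tslp, a cytokine of barrier cells, read −2.19 and −1.03 (1.16), and Csf2, which encodes GM-CSF, −4.31 and −3.04 (1.27, and 0.75 with normexp). Ccl2 (−0.43) and the adenosine receptor Adora2b (−0.29) were under 2-fold. Il3, Il4, Il9, Il10, Il13 and Tnf were above background on neither array. The list that the study itself turns on, 17 genes picked with the study's aim and earlier results in view and so no independent evidence, had 5 of 13 measured members higher and 4 lower.

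Prostanoid enzymes had 4 of 14 measured (20 on the array) higher and 1 lower (median 0.18, and −0.36 with spike-in scaling). Both cyclooxygenases were higher: Ptgs2, the inducible form, read −0.05 and 2.21 (2.26), and Ptgs1 4.00 and 5.12 (1.12). Ptgis, the prostacyclin synthase (1.39), and Cbr1, a carbonyl reductase (1.19), were higher, and Ptgr1, which inactivates prostaglandins, was lower (−1.10). The prostaglandin E synthases Ptges (−0.04), Ptges2 (0.02) and Ptges3 (0.32) were under 2-fold, and Prxl2b, a prostamide and prostaglandin F synthase, was above background on KO alone, at least 47.6-fold.

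None of these 5 calls was past 2-fold the same way at 0 h. Of 5 measured prostanoid receptors 2 were lower, both also at 0 h: Ptger1, a receptor of prostaglandin E (−1.41 and −4.34, −2.93), and Ptgir, the prostacyclin receptor (0.47 and −1.67, −2.14). Ptgds and Hpgds, the prostaglandin D synthases, were above background on WT alone, at −5.24 and −5.78, near the floor.

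Interferon-stimulated genes had 1 of 28 measured (32 on the array) higher and 9 lower (median −0.70; between −1.24 and −0.52 under the alternatives). Zbp1, a sensor of nucleic acids, read 2.13 on WT and −0.41 on KO (−2.54), Usp18, which removes ISG15, 0.11 and −2.80 (−2.92), and Isg15 3.13 and 1.36 (−1.77). Ifit3 (−0.02 and −1.81, −1.79), Ubd (−2.09), the immunoproteasome subunits Psmb8 (−1.50) and Psmb9 (−1.84), Stat2 (−1.19) and Gbp2 (−1.17) were lower too. Oas1a was higher (1.30, and 0.94 with normexp), and Ifit1 (−0.31), Irf9 (−0.50), Mx1 (−0.05) and Bst2 (0.02) were under 2-fold. The list was thus mixed, and 5 of the 10 called were 2-fold apart the same way at 0 h.

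The promoters of this list were searched on both strands for GAAA, any 2 bases and GAAA, the core of the element that interferon-activated factors bind; 1131 of 32851 promoters (3.44%) held it. Of 22 measured members with an entry 11 held it, 5 of the 8 called (Gbp2, Ifit3, Isg15, Stat2 and Oas1a, the last of them higher) and 6 of the 14 others. The list was chosen for interferon-stimulated genes, so here too a share above that of all promoters is no result of these arrays. The 250 bases before 3 starts are shown beside the genes that were lower, with matches on either strand in capitals.
Isg15, chr4:156200819-156201068, minus strand: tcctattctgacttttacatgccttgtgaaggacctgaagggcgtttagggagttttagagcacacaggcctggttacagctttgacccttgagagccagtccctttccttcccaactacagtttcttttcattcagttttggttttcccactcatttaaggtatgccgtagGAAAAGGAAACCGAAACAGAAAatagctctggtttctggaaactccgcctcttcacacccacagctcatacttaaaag
Ifit3, chr19:34583279-34583528, plus strand: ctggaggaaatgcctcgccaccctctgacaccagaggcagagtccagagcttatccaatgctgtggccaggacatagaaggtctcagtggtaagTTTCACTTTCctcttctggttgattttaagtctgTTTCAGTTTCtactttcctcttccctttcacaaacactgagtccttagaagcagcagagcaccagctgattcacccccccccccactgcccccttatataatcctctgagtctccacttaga
Stat2, chr10:128270248-128270497, plus strand: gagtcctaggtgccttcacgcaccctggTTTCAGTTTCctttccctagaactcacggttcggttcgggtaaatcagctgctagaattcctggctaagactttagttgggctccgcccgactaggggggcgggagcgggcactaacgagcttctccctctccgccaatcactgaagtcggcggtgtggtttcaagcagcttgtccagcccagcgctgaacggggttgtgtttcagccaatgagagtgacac
Isg15 held 3 matches that overlap, Ifit3 held 2 and Stat2 1. Members that were not called, such as Ifit1 and Bst2, held the motif as well.

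Growth factors and their receptors had 8 of 29 measured (43 on the array) higher and 5 lower (median −0.34). Gas6, the ligand of Axl, read −3.99 and 0.11 (4.10), Gdnf −2.11 and 0.30 (2.41), Bdnf −0.16 and 1.98 (2.15), and the EGF receptor ligands Hbegf 0.07 and 2.47 (2.40) and Ereg 0.03 and 2.03 (2.01). Hgf, the ligand of Met, read −0.45 on KO and was not well above background on WT (−6.24), at least 52.7-fold; Met itself was higher (1.34). Areg, another EGF receptor ligand, was above background on KO alone, at least 8.36-fold. Ligands of the EGF receptor thus stood higher where they were called, and Egfr itself read 1.57 and 0.74 (−0.83).

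Ptn, pleiotrophin, was lower (4.84 and 1.73, −3.11), as were Angpt4 (−4.58), Pdgfra (−1.29) and Angpt1 (−1.26), while Angpt2 was higher (1.04). In the IGF group Igfbp3 (−2.56) and Htra1 (−1.51) were lower and Igfbp4 (1.76) higher, of 13. Adm, the peptide adrenomedullin, read 2.11 and −1.42 (−3.53), opposite to its receptor partner Ramp3.

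Wnt genes had 3 of 19 measured (44 on the array) higher and 5 lower (median −0.22), and 7 of the 8 were 2-fold apart the same way at 0 h. With Ror2, the factor Lef1 (−3.77 and −1.46, 2.31) and the receptor Fzd8 (2.03) were higher. The receptors Fzd1 (3.92 and 1.11, −2.81) and Fzd4 (−1.31) and the ligands Wnt6 (3.92 and 1.73, −2.18), Wnt4 (−1.62) and Wnt10a (−1.10) were lower. Bounds added the inhibitors Dkk3 (at least 31.6-fold) and Dkk2 (8.55-fold) and the agonist Rspo2 (14.8-fold) on KO, and Rspo3 (113-fold) and the inhibitor Sfrp1 (8.08-fold) on WT. The family thus had members on both sides, receptors and secreted modulators alike.

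Guidance genes had 5 of 29 higher and 8 lower. The ligand ephrin-B2, Efnb2 (−0.14 and 2.02, 2.16), the ephrin-A receptor Epha2 (1.14 and 3.17, 2.04), Ntn1 (2.03), Sema5a (1.84) and Efna1 (1.35) were higher. Robo1, a receptor of Slit proteins, read −0.43 and −4.84 (−4.41), Epha7 0.04 and −3.22 (−3.26), Sema3f 2.97 and 0.00 (−2.97) and Efna5 2.32 and −0.01 (−2.33). Robo2 was above background on WT alone, at least 31.8-fold, and Sema7a on KO alone, at least 74.7-fold.

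Transcription factors of mesenchyme had 7 of 34 higher and 2 lower (median 0.18, and −0.36 with spike-in scaling). With Osr1, the forkhead factors Foxc2 (−2.59 and 1.39, 3.98), Foxf1 (−0.86 and 2.23, 3.08; 0.60 at its other probe) and Foxd1 (1.64), and Zeb1 (1.53) and Nr2f2 (1.20), were higher. Wt1 and Tbx18 (−1.04) were lower, and Pax3 was above background on KO alone, at least 30.1-fold. Twist1 (0.40), Prrx1 (−0.38), Runx2 (0.17) and Snai2 (−0.86), all factors of fibroblasts, were under 2-fold.

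Hox genes, which mark position along the body, had 2 of 15 measured (34 on the array) higher and 5 lower (median −0.45). Hoxa7 (−4.05 and −0.29, 3.76) and Hoxa3 (1.41) were higher. Hoxc6, Hoxb9 (−1.56 and −6.42, −4.87), Hoxd4 (−1.19), Hoxa2 (−1.17) and Hoxd3 (−1.02) were lower, and Hoxc9 was above background on KO alone, at least 8.79-fold. Genes of 1 cluster lay on both sides, as Hoxa7 and Hoxa2 did.

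In lipid storage, besides Lpl, the droplet protein Plin4 was lower (−0.09 and −2.51, −2.42). Dlk1, an inhibitor of fat cell formation, read 3.49 and 6.38 (2.88), Dgat2, which makes triglyceride, −0.85 and 1.69 (2.53), and Fabp4, a fatty acid carrier, −3.39 and −1.58 (1.81). Those 5 of 19 were all 2-fold apart the same way at 0 h. Pparg differed by 0.78. Cholesterol genes had 1 of 24 higher, Mvd (1.25), and 2 lower, the exporter Abca1 (−1.78) and Dhcr7 (−1.19), around a median of 0.03.

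Stress and metabolic genes stood lower in part. NRF2, glutathione and metallothionein genes had 1 of 23 higher and 7 lower (median 0.00): Selenop, the glutathione transferases Gstt1 (2.75 and −0.66, −3.42; −1.28 at its other probe), Gsta2 (−1.95), Gsta4 (−1.77), Gstm2 (−1.49) and Gstm1 (−1.11), and Sod3, the extracellular superoxide dismutase (2.55 and −0.61, −3.16). The NRF2 targets Hmox1 (0.07), Gclm (0.15), Txnrd1 (0.30) and Nqo1 (0.84) were under 2-fold. Glutathione transferases are close copies, and a probe may read more than 1.

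Hypoxia and glycolysis genes had 0 of 23 higher and 5 lower (median −0.27). Adm, Pdk1 (−0.44 and −3.31, −2.87), Bnip3 (4.19 and 2.33, −1.86), Ndrg1 (4.02 and 2.47, −1.55) and Pfkl (−1.42) were lower, and Gapdh (−0.03), Ldha (0.00) and Pgk1 (0.01) read the same on both arrays. p53 targets had 0 of 20 higher and 5 lower, led by Btg2 (−2.43) and Sesn2 (−1.46), while Mdm2 (0.69), Bax (0.13) and Cdkn1a (−0.55) were under 2-fold. Unfolded protein and stress response genes had 0 of 27 higher and 4 lower, Ero1a (−2.26), Sesn2, Sdf2l1 (−1.36) and Ddit3 (−1.15), with Hspa5 at −0.01 and Atf4 at 0.12. These lists had 5, 5 and 4 calls, of which 1, 1 and 0 were past 2-fold the same way at 0 h.

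The cell cycle and the respiratory chain were nearly level. Of 28 cell cycle genes 1 was higher, Ccnb2 (2.60 and 4.16, 1.56), and 0 were lower, around a median of 0.23 that turned to −0.31 with spike-in scaling. Mki67 read 3.51 and 3.55, Pcna 5.56 and 5.37, and Ccnd1 4.90 and 5.01. Among inhibitors of cyclin-dependent kinases Cdkn2b was higher (−0.09 and 2.54, 2.63) and Cdkn1b lower (−1.29, and −0.54 at its other probe). All 30 oxidative phosphorylation subunits lay between −0.78 and 0.48, with a median of −0.15.

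**Figure D4:**
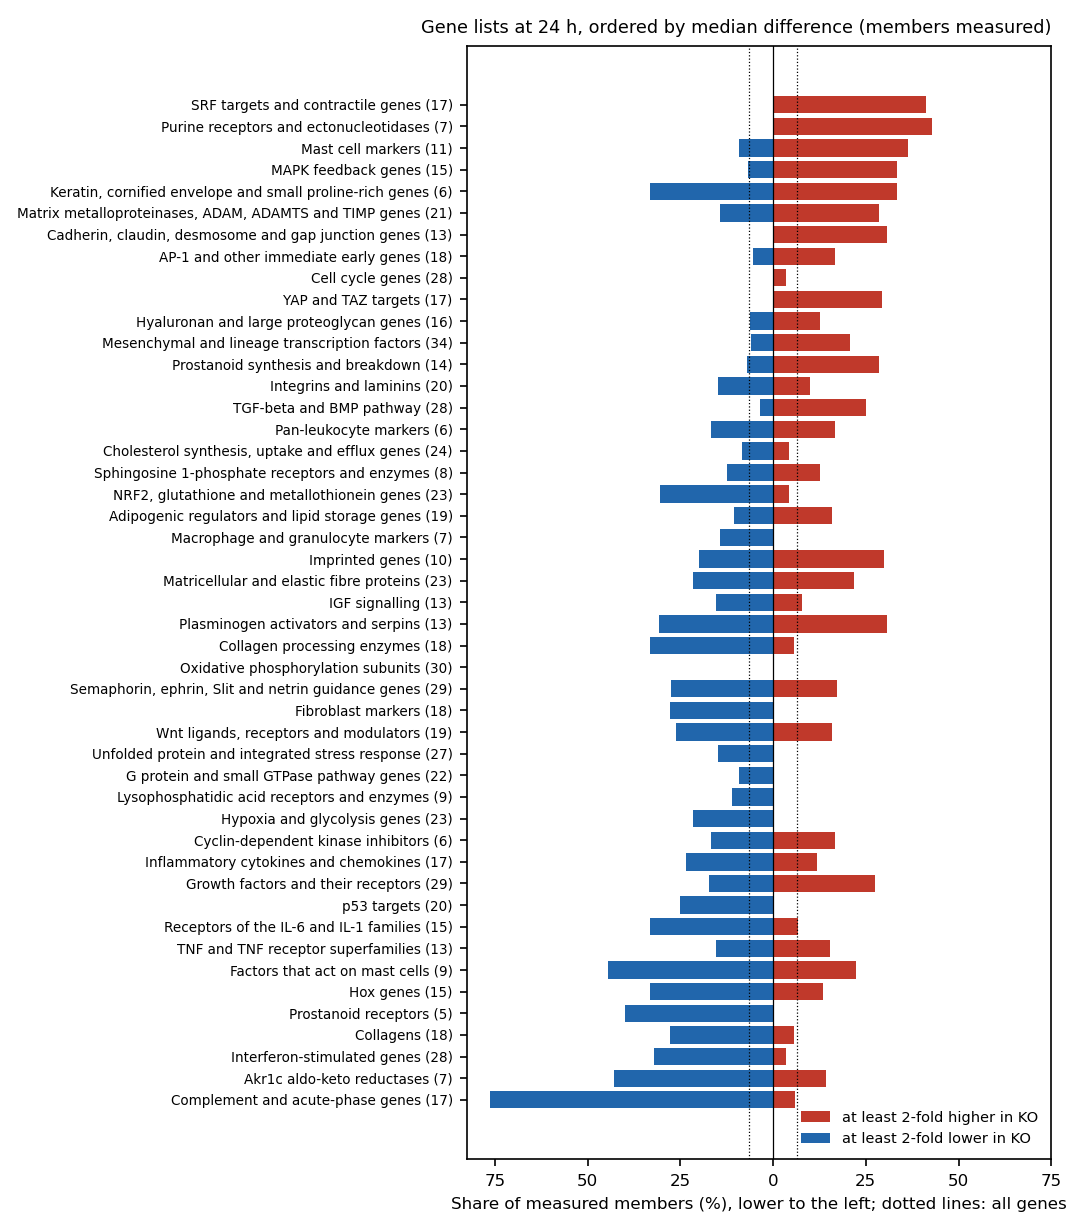
Share of each list's measured members (mean log2 signal of −4 or above, at least 5 members; number in brackets) that were at least 2-fold higher (red, right) or lower (blue, left) in KO at 24 h, ordered by the list's median difference; dotted lines mark 6.32% higher and 6.44% lower over all 13687 genes. Contractile genes are at the top and complement and acute-phase genes at the bottom.

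The same genotypes at 0 h gave a second pair of arrays that shares no array with the 24 h pair, though it shares the cell lines. Both 0 h arrays held abundant mast cell transcripts, and over the brighter genes 3.84% were at least 2-fold higher in KO there and 5.06% lower. Across 13659 genes the differences at the 2 times had a Pearson correlation of 0.65 and a Spearman correlation of 0.44, which is a description, since genes are not independent and each time has 1 array a side. Of 1726 genes called at 24 h and measured at 0 h, 723 (41.9%) were past 2-fold the same way, 687 lay the same way under 2-fold, 297 the opposite way under 2-fold and 19 the opposite way past 2-fold. Higher and lower calls did so alike, 370 of 861 (43.0%) and 353 of 865 (40.8%). All 19 opposite genes were lower in KO at 24 h and higher at 0 h.

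Of the 30 genes furthest apart, 24 were measured at 0 h and 19 of these were past 2-fold the same way. Tagln (8.02), Emp2 (6.24), Ror2 (5.93), Syt13 (−8.99) and Lpl (−5.41) kept most of their size at 0 h. Anpep, aminopeptidase N, read −5.39 on WT and 1.77 on KO at 24 h (7.16) but 3.75 and 3.59 at 0 h (−0.16). Il1rl1 differed by 6.11 at 24 h and 0.39 at 0 h at its probe brightest over the 4 arrays. Another, the brightest of its probes on KO at 24 h, differed by 7.24 there. At 0 h that probe read 2.38 on WT and 4.53 on KO. The last probe was higher on KO at both times too. Asphd2 differed by 6.84 and 1.37. Selenop (−6.49 and −0.27), Akr1c13, an aldo-keto reductase (−5.29 and 0.69), and Arhgap20, a GTPase-activating protein (−5.22 and 0.70), were lower at 24 h and under 2-fold at 0 h. In 5 of these 6 genes, all but Selenop, the WT signal was lower at 24 h than at 0 h, as that of the mast cell markers was: Akr1c13 read 5.12 at 0 h and 2.51 at 24 h on WT, and 5.80 and −2.78 on KO. What the mast cell transcripts of the earlier arrays contribute to these contrasts was not tested.

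**Figure D5:**
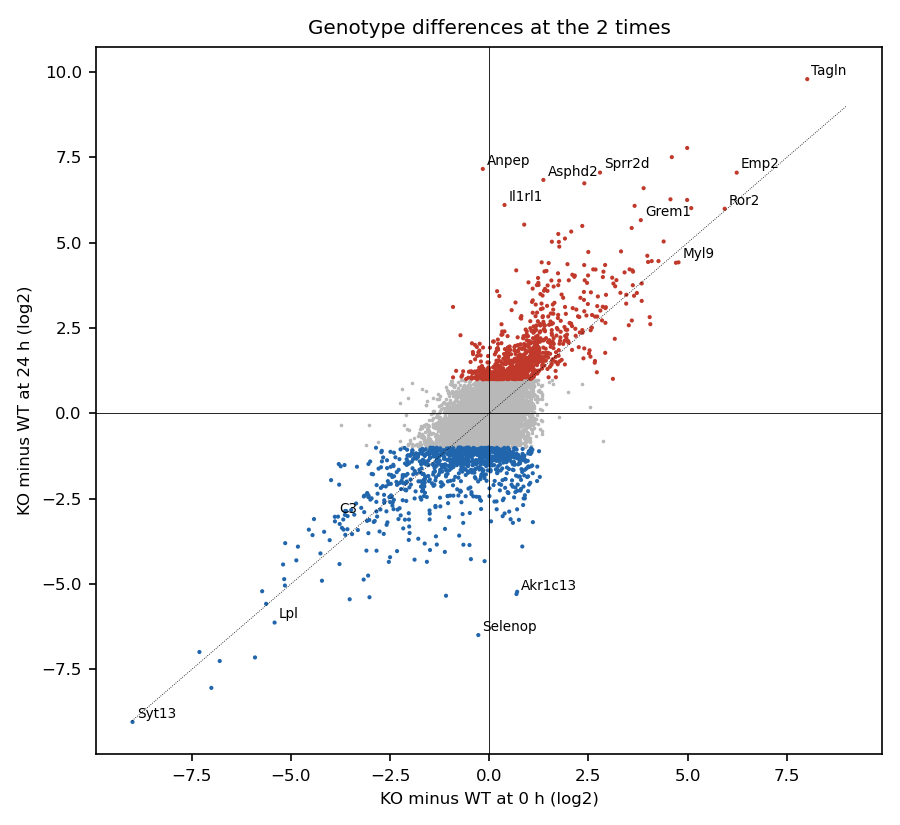
KO minus WT (log2) at 0 h (horizontal axis) and at 24 h (vertical axis) for 13659 genes with a mean 24 h signal of −4 or above and measured on all 4 arrays; red and blue points are at least 2-fold higher and lower at 24 h, and the dotted line marks equal differences. Tagln, Emp2, Syt13 and Lpl lie near the line. Anpep, Il1rl1 (probe brightest over the 4 arrays), Selenop and Akr1c13 lie close to 0 on the horizontal axis.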

How the data were processed

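RNA pooled from 3 samples was labelled (200 ng) for each of 4 Agilent single-colour arrays. Per the file headers and the submitters' processing notes, Feature Extraction 12.1.1.1 made the deposited processed intensities, with spatial and multiplicative detrending of the background. The deposited value table holds the same intensities as a ratio to each array's 75th percentile, as found by setting it against the scanner values, and the authors' scaling step is not given in the sources used here. From the deposited intensities, log2 values minus each array's 75th percentile over non-control spots were computed here, spots of a probe were averaged, and the probe with the highest mean signal stood for a gene. Of 39429 probes, 29104 were named through RefSeq accessions, which changed 344 symbols, and 10325 kept the array's own name. Signal not well above background was used only for a bound: the measured side against the other array's floor, or against the gene's own dim value where that was greater. Alternatives included normexp (offset 50), quantile and loess normalization (limma 3.58.1, R 4.3.3); Python 3.11.15, pandas 2.3.3 and numpy 2.4.6 did the rest. The script that makes the calls was tested on simulated data with known changes. Named genes are the 15 largest differences on either side, among brighter genes that were also 2-fold apart the same way with normexp. The 4 largest bounds on either side and up to 4 called members at either end of a list were added. Other genes named were chosen after their values were seen. The members and the 52 gene lists (1237 entries, 3 of them not on the array) were chosen with earlier results of these data known. Promoter sequences are RefSeq's for GRCm38.p6 and cover no entry for Tagln, Actg2, Tgfb1i1, Ccn2, Usp18 or Zbp1. Some list members are counted but not reported here by name.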

Additional observations from a re-analysis of the deposited data

Results flagged for a closer look

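Of the 19 brighter genes whose genotype difference was past 2-fold in opposite directions at the 2 times, 3 are described here. The change between times was not tested, with 1 array for each genotype and time. Akr1c12, an aldo-keto reductase from a family of close copies, differed by −3.18 at 24 h and 1.10 at 0 h: it read −2.03 on WT and −5.22 on KO at 24 h, and 2.65 and 3.75 at 0 h. Cd53, a tetraspanin of leukocytes, differed by −1.03 and 1.06, with −3.26 and −4.29 at 24 h and 0.73 and 1.79 at 0 h. Hdc, which makes histamine, differed by −1.57 and 1.00, with −3.15 and −4.72 at 24 h and −1.43 and −0.43 at 0 h. Hdc is on the mast cell marker list and Cd53 on the leukocyte list, whose measured members had median differences of 0.83 and 0.94 at 0 h. The part of those cells' transcripts in these values was not tested. All 3 were brighter on both 0 h arrays than on either 24 h array. With normexp background correction Cd53 (−0.45) and Hdc (−0.72) were under 2-fold at 24 h.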

How the results depend on the processing

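No paired analysis was possible because each group has 1 array, and for the same reason no replicate could be left out. Of the counts over all measured genes (998 higher, 2114 lower, 32.1% of calls higher) and at a mean of −4 or above (865, 881, 49.5%), those that moved are given here: counts that changed by over 1.5 times, and shares outside the 95% binomial interval of the main share. The loess count of 1363 and the normexp counts of 705, 681 and 631 did not move and stand beside shares that did. Quantile normalization gave 1392 lower over all measured genes (46.3% of calls higher), and loess 1153 lower and 1363 higher (54.2%, and 53.5% at −4 or above). The percentile over probes above background on all 4 arrays gave 28.3% and 44.3% higher, and normexp 705 higher and 654 lower over all genes and 681 and 631 at −4 or above, with 51.9% higher in both sets. Without the filter on dim probes 1649 were higher and 7604 lower (17.8%), and above the median probe 1158 were lower (45.4%). A 1.5-fold threshold called 2255 and 3974 over all genes (36.2%) and 1990 and 2087 at −4 or above, and a 3-fold threshold 466 and 860 (35.1%) and 417 and 377 (52.5%). The deposited value table, the mean of a gene's probes and a demand for over 2 SE changed no count by over 1.5 times (944 higher and 2132 lower with the mean of probes).

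Spike-in scaling and list members at a mean of 0 or above were alternatives chosen after seeing the data. Spike-in scaling moved the median of all measured genes to −0.63 and gave 490 higher and 4874 lower over all (9.13%) and 438 and 2771 at −4 or above (13.6%). With it, 15 list medians turned negative; those 0.20 or more from 0 beforehand were of YAP and TAZ targets (−0.33), AP-1 and other immediate early genes (−0.31), metalloproteinases and their kin (−0.26), junction genes (−0.29) and cell cycle genes (−0.31). The other 10 ended between −0.54 and −0.36. With members at a mean of 0 or above, 10 medians turned, 3 of them from 0.20 or more away from 0: lysophosphatidic acid genes (0.0034), Akr1c reductases (0.45) and purine genes (−0.29). Counted for each list under each alternative, 37 medians changed sign, 29 of them from within 0.20 of 0, the median SE. A list can count more than once. By the same count, 426 medians stayed within that distance of their main value. For the 218 named genes, 1464 values kept direction and call, 58 were no longer 2-fold, 3 became so and 1 turned: Mirg, at 0.54 as the mean of its probes. The 3 were Lpar1, Lpar5 and Lpar6, lower with spike-in scaling. For the 30 genes furthest apart, the normexp call was fixed by how they were picked.

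Those no longer 2-fold with spike-in scaling included Tpm2 (0.77), Ptgs1 (0.57), Tslp (0.62), Cd44 (0.82) and Ankrd1 (0.80), and with the mean of probes Itgb1 (0.78) and Vwf (0.45). Of the 58, 26 came with spike-in scaling, 21 with normexp and 6 with the mean of probes. Others that fell short, given at their smallest size under any alternative, were Tnc (0.65), Flg (−0.45), Hoxa2 (−0.87), Serpinb6b (−0.85), Slc22a18 (−0.83) and Itga7 (−0.84). Not every such gene is listed. With 1 pooled array a side, the spread between cultures is unknown, and dim signals limit sizes: ERCC and ETG control probes near background read lower on KO.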

Other observations

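These genes were chosen after their values were seen, except where a list is named. Several genes of the skin's cornified envelope stood higher on KO. Lce1g read −2.13 on WT and 3.20 on KO (5.33), Lce1i −2.42 and 3.07 (5.49) and Lce1c −3.83 and 0.90 (4.73), and at 0 h they differed by 2.07, 2.35 and 2.50. Lce1a2 differed by 2.42 at its brightest probe and −0.35 at another, and Lce1m, a dim gene, by −1.47. Besides Sprr2d, the genes Sprr2e (at least 150.7-fold), Sprr2k (at least 23.3-fold) and Sprr2h (at least 12.3-fold) were above background on KO alone. Lce1 and Sprr2 genes are near-identical copies, and their probes may not tell them apart. In the list of keratin and cornified envelope genes, 2 of 6 measured (29 on the array) were higher, Sprr2d and Tgm2, and 2 lower, Krt7 (−1.73) and Flg (−1.21). Tnnt2, a heart muscle troponin (−3.65 and 1.47, 5.12), and Msln, mesothelin (−1.59 and 2.63, 4.22), stood higher on KO as well.

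Of 10 measured imprinted genes (24 on the array) 3 were higher and 2 lower. Dlk1 and Meg3, neighbours in 1 imprinted domain, were both higher, Meg3 at −5.64 on WT and −0.60 on KO (5.04). Snrpn was higher (1.41) and Slc22a18 lower (−1.36). Mirg, of the same domain as Meg3, was lower at its brightest probe (−2.72) and reached 2.30 at another, so it has no settled direction. Peg3 was above background on WT alone, at least 17.5-fold.

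Of 7 measured Akr1c and related reductases (13 on the array) Akr1c18, which breaks down progesterone, was higher (−1.06 and 1.23, 2.29), and Akr1c13, Akr1c12 and Akr1c14 (−2.49) were lower. Of 7 measured purine genes (23 on the array) Entpd5 (1.84), P2ry2 (1.63) and Enpp3 (1.25) were higher and 0 lower. Adrenomedullin genes had Ramp3 and Adm2 (1.77) higher and Adm lower, of 3 measured.

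Xist, the RNA that coats an inactive X chromosome, read 0.61 on WT and was not well above background on KO (−8.66), at least 157-fold, with 1.03 and −8.79 at 0 h. The 496 genes of chromosome X measured at a mean of −4 or above had 19 higher (3.83%) and 23 lower (4.64%), around a median of 0.01. Of all such genes 6.32% were higher and 6.44% lower. The Y-linked genes Ddx3y and Eif2s3y were above background on neither 24 h array and on both 0 h arrays, at −1.75 and −0.40 for Ddx3y and −0.12 and 1.18 for Eif2s3y.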
